A study of Mus musculus with 3 samples.

Results

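The Gadd45 family consists of 3 genes in these data, Gadd45a, Gadd45b and Gadd45g, which encode small acidic proteins without known catalytic activity. The peaks described here are all Smad3 and JMJD3 peaks that name 1 of these genes as the closest gene, together with all peaks whose midpoint lay within 50 kb of the transcription start site (TSS) of one of them. These were 98 of 98086 Smad3 peaks and 59 of 63154 JMJD3 peaks. The peaks came from chromatin immunoprecipitation followed by sequencing, which recovers the DNA bound by a protein, in wild-type neural stem cells of the mouse cerebral cortex. The cells were dissected at E12.5, grown with EGF at 20 ng/ml and FGF at 10 ng/ml, and given TGFb at 5 ng/ml, which the series text times at 30 minutes for both immunoprecipitations. There was 1 library per antibody and 1 input library without antibody, whose file was not used here. No value therefore has a replicate error, no p-value is given, and without an untreated library no value shows an effect of TGFb. Peak height and read number are absent from both lists, which leaves sequencing depth unknown, and a site bound in more of the cells cannot be told apart from one bound more strongly in each cell. In the same lists, all 7 neural stem cell markers looked up (Nes, Sox2, Vim, Pax6, Hes1, Fabp7 and Slc1a3) had promoter peaks of both factors, as did 2 of 4 neuronal, 1 of 4 endothelial, 0 of 4 fibroblast and 0 of 4 microglial markers, against 41.9% of all coding genes. Of the fibroblast markers, 1 carried Smad3 alone, and no microglial marker carried either factor. A peak is not a measure of expression.

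GADD45 proteins are induced by growth arrest and stress and act by binding other proteins. They bind and activate the kinase MTK1 (Map3k4), which feeds the p38 and JNK cascades, and they bind PCNA, the CDK inhibitor p21 and the mitotic kinase CDK1. They have also been linked to active DNA demethylation through thymine DNA glycosylase. Gadd45a is a classic target of p53. In other cell types, Gadd45b is known as a Smad-dependent target through which TGF-beta activates p38 with a delay. Gadd45g is known from mouse embryos as a gene of neuronal precursors. Smad3 is phosphorylated by the TGF-beta receptor and then acts on DNA in the nucleus. JMJD3 is the Kdm6b gene product and removes the repressive Polycomb methyl mark from histone H3.

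Because peaks of both factors covered all 250 bases immediately upstream of each Gadd45 TSS, these 3 stretches are shown, 5′ to 3′ on the strand of the gene, from RefSeq promoters of build GRCm38.p6. They lie at chr6:67037408-67037657 on the minus strand (Gadd45a), chr10:80929841-80930090 on the plus strand (Gadd45b) and chr13:51846425-51846674 on the plus strand (Gadd45g). The peak files use build mm9, so the stretches and the peaks were related by distance from the TSS alone, and no coordinate was converted. Capitals mark matches, on either strand, to the Smad-binding element and its GC-rich form, the CCAAT box, the octamer, the TATA box, the AP-1 site and the E-box.
Gadd45a: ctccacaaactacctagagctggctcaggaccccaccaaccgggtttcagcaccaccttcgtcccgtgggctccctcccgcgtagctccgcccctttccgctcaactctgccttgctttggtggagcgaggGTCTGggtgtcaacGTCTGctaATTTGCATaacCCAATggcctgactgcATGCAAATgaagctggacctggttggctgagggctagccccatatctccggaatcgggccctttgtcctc
Gadd45b: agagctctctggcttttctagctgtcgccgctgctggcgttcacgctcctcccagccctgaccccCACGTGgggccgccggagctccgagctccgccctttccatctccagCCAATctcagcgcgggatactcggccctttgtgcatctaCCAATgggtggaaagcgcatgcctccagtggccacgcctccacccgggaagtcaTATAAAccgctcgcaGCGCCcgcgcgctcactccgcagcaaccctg
Gadd45g: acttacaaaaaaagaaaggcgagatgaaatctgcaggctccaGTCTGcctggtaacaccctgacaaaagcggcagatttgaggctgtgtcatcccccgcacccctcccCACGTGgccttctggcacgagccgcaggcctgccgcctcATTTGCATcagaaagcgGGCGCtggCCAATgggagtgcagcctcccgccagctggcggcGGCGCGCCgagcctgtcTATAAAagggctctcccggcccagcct

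All 3 upstream stretches held a CCAAT box, which 36.7% of 16783 coding promoters of the same length also held. The Gadd45a stretch had 1 at -86 to -82, Gadd45b had 2 at -139 to -135 and -100 to -96, and Gadd45g had 1 at -78 to -74, counted from the TSS. The octamer ATTTGCAT, bound by POU factors, was found in 1.63% of promoters and in 2 of the 3 Gadd45 genes. Gadd45a held 2 copies that flank its CCAAT box, at -97 to -90 and, on the other strand, at -70 to -63. Gadd45g held 1 copy at -103 to -96. The Smad-binding letters CAGAC, present in 40.7% of promoters, matched 2 times in Gadd45a, at -119 to -115 and -105 to -101, once in Gadd45g and nowhere in the Gadd45b window. The GC-rich form GGCGC, present in 41.5% of promoters, matched once in Gadd45b and 3 times in Gadd45g, where 2 of the matches overlap each other on opposite strands. A TATA box, TATAAA, stood in Gadd45b at -46 to -41 and in Gadd45g at -27 to -22, against 12.2% of promoters, and the E-box CACGTG stood in the same pair of genes, against 6.85%. The AP-1 letters TGANTCA had 0 matches in the 3 windows and matched 6.33% of promoters. All 3 Gadd45 promoters were bound by both factors, and over the 7159 such promoters some shares differ. There GGCGC was in 61.1%, TATAAA in 5.29%, CACGTG in 8.9% and TGANTCA in 3.49%. The CCAAT box, the octamer and CAGAC were in 38.3%, 1.48% and 40.2%, near the shares of all promoters. GC content was 59.2% for Gadd45a, 65.2% for Gadd45b and 62.0% for Gadd45g, above the median promoter at 56.0%, and Gadd45b had 22 CpG dinucleotides against a median of 10. The motifs searched for were not set in the plan, and their counts in the Gadd45 genes were not tested against those of other promoters. These matches describe the letters in the windows and do not show which of them were bound.

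All 3 Gadd45 genes carried both factors at the promoter. A gene was counted as bound when a peak naming it had its midpoint within 1 kb of the TSS. By this rule Smad3 was at 3 of 3, JMJD3 at 3 of 3 and both at 3 of 3, where 55.0%, 43.3% and 41.9% of 20953 coding genes met it. With 3 genes this count does not set the family apart from the many other bound genes. The genes differed in how wide the bound region was and in how far the Smad3 and JMJD3 regions coincided, as the map of the 5 kb around each start shows. A region here joins peaks of 1 list that lie at most 10 bp apart. Its width is given in place of a peak score, which the files do not hold. Whether width follows binding strength could not be checked.

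Gadd45b had wide promoter regions for both factors, the widest of the family when peaks at most 10 bp apart were joined. On chromosome 10 the Smad3 region ran from 80391321 to 80393570 (mm9), 2250 bp in 5 peaks, and was wider than that of 99.1% of the 11524 Smad3-bound genes. The JMJD3 region ran from 80391301 to 80393391, 2091 bp in 4 peaks, and was wider than at 98.3% of 9077 JMJD3-bound genes. Both began almost together, 1514 bp and 1534 bp upstream of the TSS, and ended 735 bp and 556 bp downstream, inside the gene of 2114 bp. Smad3 covered 98.2% and JMJD3 99.1% of the 1000 bp upstream of the start.

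Gadd45g followed closely, with regions that extended to either side of the start. The Smad3 region on chromosome 13 from 51940591 to 51942611 measured 2021 bp, and the JMJD3 region from 51941241 to 51943180 measured 1940 bp. These widths exceeded those of 98.2% and 97.5% of bound genes. The Smad3 region lay from 1452 bp upstream to 568 bp downstream of the TSS and the JMJD3 region from 802 bp upstream to 1137 bp downstream. Further peaks of both lists lay beside them, and Smad3 peaks went on to 1708 bp past the start. Joined across the lists, they formed a single bound stretch of 3661 bp, from 1952 bp upstream to 1708 bp downstream, which took in most of the gene of 1800 bp. Smad3 peaks covered 84.6% and JMJD3 peaks 62.7% of the gene body.

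Gadd45a combined a wide Smad3 region with a narrow JMJD3 peak. The Smad3 region on chromosome 6 from 66986261 to 66987970 measured 1710 bp in 4 peaks and was wider than at 96.0% of bound genes. The JMJD3 region was 1 peak of 700 bp, from 66987121 to 66987820, and was wider than at 29.0% of bound genes. Its midpoint lay 69 bp upstream of the TSS, and 691 bp of it were covered by Smad3 peaks. Smad3 continued into the gene where JMJD3 stopped. The JMJD3 peak ended 280 bp past the start and the Smad3 region 1140 bp past it, with 2 Smad3 peaks, centred 495 bp and 895 bp downstream, that overlapped no JMJD3 peak. Over the first 1000 bp of the gene, Smad3 peaks covered 98.2% and JMJD3 peaks 28.1%. Smad3 also reached farther downstream over all coding TSS named in the files. It covered 26.8% of them at 500 bp past the start and 11.75% at 1000 bp, against 18.19% and 6.7% for JMJD3. The Smad3 region was 2.44 times as wide as the JMJD3 region, a ratio above that of 98.7% of the 8780 genes bound by both, whose median ratio was 0.936. At Gadd45b and Gadd45g the ratios were 1.08 and 1.04. The Gadd45a ratio rested on the joining of its Smad3 peaks: between the widest single peaks it was 0.987, above 66.6% of genes, with a median of 0.849.

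**Figure D1:**
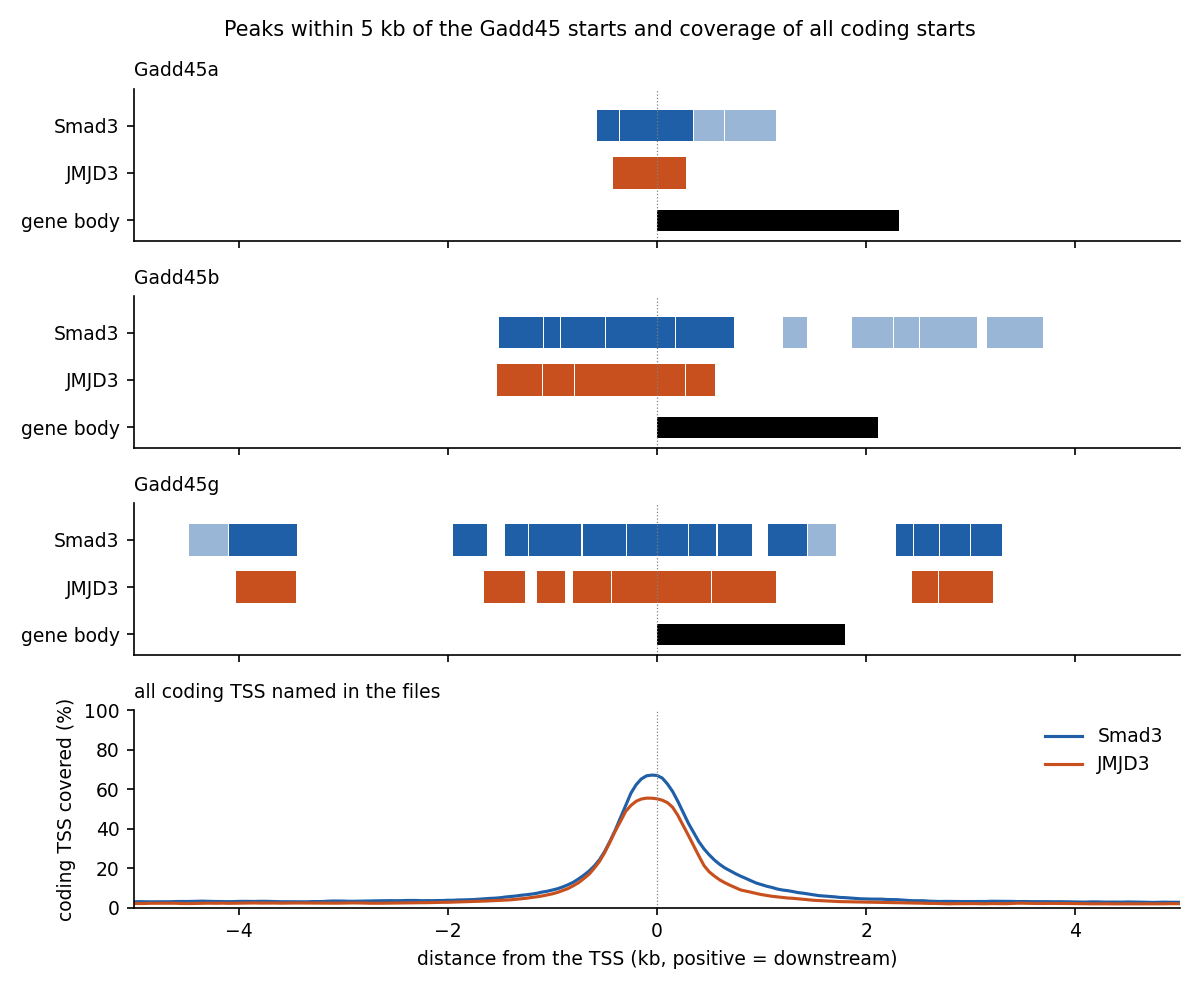
Peaks of Smad3 (blue) and JMJD3 (orange) within 5 kb of the start of each Gadd45 gene, against distance from the TSS in kb, with the gene body in black and peaks that overlap no peak of the other list drawn pale; the lowest panel gives the percentage of 16633 coding TSS named in the files that peaks cover at each distance. Smad3 without JMJD3 lies inside Gadd45a and across the end of Gadd45b, while both factors lie along most of Gadd45g.

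The rank of these widths rested partly on joining neighbouring peaks. Without joining, the widest single Smad3 promoter peak was 691 bp at Gadd45a, 661 bp at Gadd45b and 581 bp at Gadd45g. These were wider than 79.0%, 75.0% and 61.0% of the same measure over bound genes, whose median was 521 bp. For JMJD3 the single peaks were 700 bp, 1051 bp and 951 bp, wider than 57.1%, 94.3% and 89.5%, with a median of 660 bp. The order of Gadd45b and Gadd45g changed with the joining distance. With peaks up to 100 bp apart joined, Gadd45g was wider than Gadd45b for Smad3 (2360 against 2250 bp) and for JMJD3 (2290 against 2091 bp). Gadd45a had the narrowest JMJD3 width of the 3 at each of the 4 settings, and for Smad3 the widest single peak but the narrowest joined regions.

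**Figure D2:**
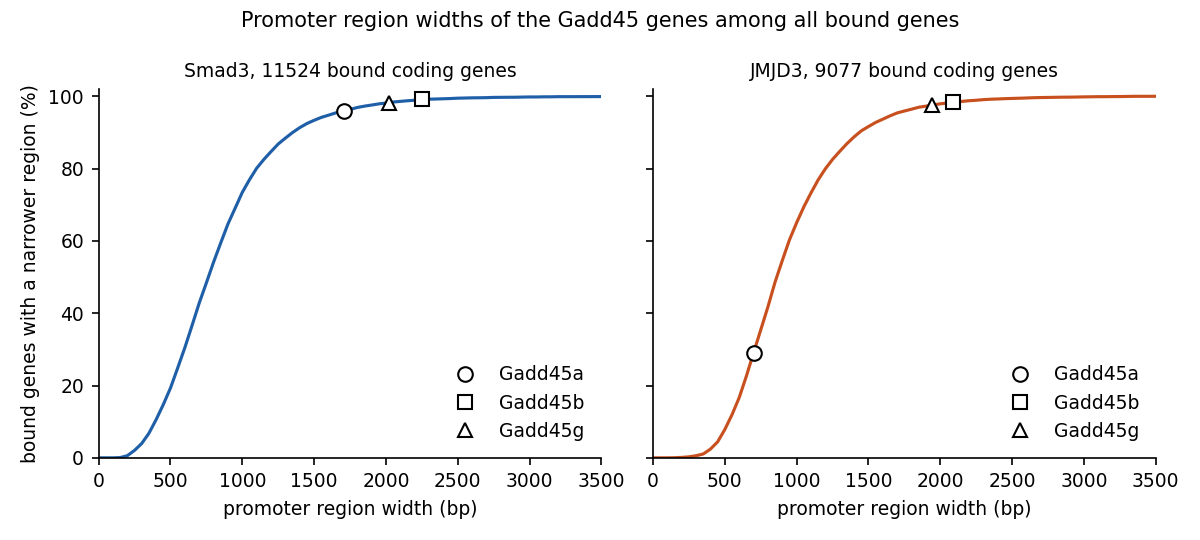
Percentage of bound coding genes with a narrower promoter region (vertical axis) against region width in bp (horizontal axis) for Smad3 and JMJD3, with the 3 Gadd45 genes as symbols. All 3 sit near the top of the Smad3 curve, and Gadd45a drops to 29.0% on the JMJD3 curve.

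Within 50 kb of the starts, 64 Smad3 and 36 JMJD3 peaks were listed, and their numbers differed widely between the genes. Gadd45b had 34 Smad3 and 17 JMJD3 peaks, Gadd45g 22 and 14, and Gadd45a 8 and 5. The median over all 17753 TSS named in the files was 7 Smad3 and 5 JMJD3 peaks, so Gadd45a was close to it. Fewer peaks than at Gadd45b were found around 97.9% of TSS for Smad3 and 96.2% for JMJD3, and fewer than at Gadd45g around 91.2% and 92.4%. Gene density differs between the loci. Among genes whose start the files name, 2 others start within 50 kb of Gadd45b and 0 within 50 kb of Gadd45a or Gadd45g. Genes that no peak names were not counted. Among TSS with the same number of neighbours, a comparison chosen after the counts were seen, the percentages were 98.4% and 97.4% for Gadd45b, 96.8% and 97.1% for Gadd45g, and 73.7% and 70.2% for Gadd45a.

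**Figure D3:**
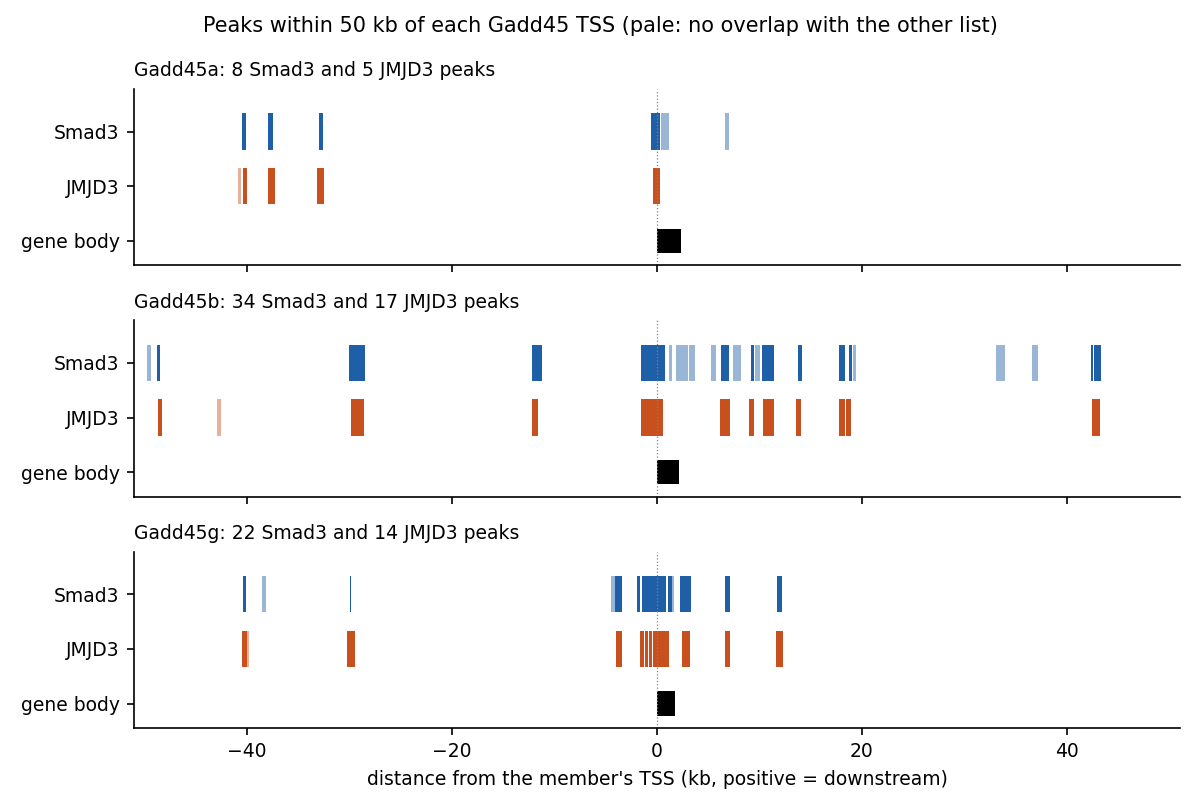
Smad3 (blue) and JMJD3 (orange) peaks within 50 kb of each Gadd45 TSS against distance in kb, with the gene body in black and peaks without overlap with the other list drawn pale. Gadd45a has bound sites upstream between 30 and 50 kb, Gadd45b a dense series downstream, and Gadd45g a cluster at the gene.

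Most of the JMJD3 peaks within 50 kb of the Gadd45 starts lay on Smad3 peaks, as did most JMJD3 peaks of the whole list. Of the 36 JMJD3 peaks within 50 kb, 33 (91.7%, exact Clopper-Pearson 95% CI 77.5 to 98.2) shared at least 1 bp with a Smad3 peak, against 81.4% of all JMJD3 peaks and 84.2% of those within 50 kb of their closest TSS. Of the 64 Smad3 peaks, 44 (68.8%, 95% CI 55.9 to 79.8) shared bases with JMJD3, against 60.2% of all and 60.0% of those within 50 kb of a TSS. Both intervals, which cover counting error only, include these shares of the whole lists. With a stricter rule, under which a pair of peaks shares at least 50% of each, 72.2% of the JMJD3 peaks and 40.6% of the Smad3 peaks were shared, against 58.2% and 37.4% of all. The share of Smad3 peaks with JMJD3 was 86.4% at Gadd45g (19 of 22), 62.5% at Gadd45a (5 of 8) and 58.8% at Gadd45b (20 of 34). The exact 95% interval at Gadd45g, 65.1 to 97.1, lay above the 60.2% of the whole list, and those of the other loci included it. Such intervals take each peak as independent, but the 22 peaks at Gadd45g lay in 11 regions, so they are likely too narrow. Differences between the loci were not tested. When the regions of both lists were joined where they touched, 36 sites resulted, of which 22 held both factors, 12 Smad3 alone and 2 JMJD3 alone. Of the 12 sites with Smad3 alone, 10 lay around Gadd45b, which had 22 sites in all. Gadd45a had 1 among 6 sites and Gadd45g 1 among 8. The share of such sites over the whole lists was not counted. By peaks, the 58.8% shared at Gadd45b was near the 60.2% of the whole Smad3 list. Taken over all 59 JMJD3 and 98 Smad3 peaks described here, 83.1% and 67.3% were shared, against 81.4% and 60.2% of the whole lists. Of those naming a Gadd45 gene from beyond 50 kb, 69.6% and 64.7% were shared. The shares over all peaks beyond 50 kb of a TSS were 75.2% and 60.8%.

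Past its promoter, Gadd45b had a series of bound sites that began inside the gene, 1206 bp past the TSS, and ran to 19.3 kb past it. Directly past the promoter lay Smad3 without JMJD3. Between the end of the JMJD3 promoter region, 556 bp past the TSS, and the next JMJD3 peak, 6196 bp past it, there were 6 Smad3 peaks that covered 2423 bp. They spanned from 1206 bp to 5775 bp downstream, across the end of the gene. Over all coding TSS, Smad3 likewise covered more than JMJD3 there, for example 4.49% against 2.93% at 2000 bp downstream. From 5 to 20 kb downstream, a range that takes in the last of these, 10 sites were listed, 6 with both factors and 4 with Smad3 alone. Those with both were centred 6.66, 9.22, 10.8, 13.8, 18.0 and 18.7 kb past the TSS. The widest of them, from 80403051 to 80404230 on chromosome 10, held 1160 bp of Smad3 and 1100 bp of JMJD3 peaks. The last 3 Smad3 peaks and the last JMJD3 peak that name Gadd45b had their midpoints within the transcribed span of Gng7, a G protein gamma subunit gene read toward Gadd45b, and the farthest of them was 33.5 kb from the TSS.

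Some of the peaks near Gadd45b lay closer to the start of a neighbour. Of the 34 Smad3 and 17 JMJD3 peaks, 11 and 6 named another gene as closest. Timm13, which encodes a mitochondrial import chaperone, had 1530 bp of Smad3 and 1260 bp of JMJD3 at its promoter, in a site centred 29.3 kb upstream of Gadd45b. Lmnb2, the lamin B2 gene, lies next to Gadd45b in the opposite orientation, and Smad3 took up 970 bp and JMJD3 641 bp of its promoter, 11.8 kb away. Tmprss9, a serine protease gene, had a Smad3 promoter region of 411 bp and no JMJD3 promoter peak. Gng7 was named by 4 Smad3 peaks and 1 JMJD3 peak of the window, and its own promoter had regions of 591 bp and 720 bp. The peaks naming Gadd45b alone were 23 for Smad3 and 11 for JMJD3, all within 50 kb.

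Gadd45a had a bare flank downstream and a row of shared sites upstream. Past the gene, a single Smad3 peak of 420 bp was centred 6.82 kb from the TSS. Upstream, the first bound site lay 32.8 kb away. Between 30 and 50 kb upstream, 4 sites were listed, of which 3 held both factors, at -32.8, -37.6 and -40.2 kb, and 1 held JMJD3 alone, at -40.7 kb. The JMJD3 peaks at the first 2 of them, 720 bp and 670 bp, were close in width to the JMJD3 peak at the promoter, and the Smad3 peaks were 440 bp and 461 bp. Peaks that name Gadd45a went on to 97.8 kb upstream. Of 6 sites between 50 and 100 kb, 2 held both factors, the wider of them 65.3 kb upstream with 1100 bp of Smad3 and 1240 bp of JMJD3 peaks. In all, 16 Smad3 and 12 JMJD3 peaks named Gadd45a. Within 50 kb, 62.5% of its Smad3 and 80.0% of its JMJD3 peaks overlapped the other list. Over the whole lists within 50 kb of a TSS these shares were 60.0% and 84.2%. Beyond 50 kb, 62.5% (5 of 8) and 57.1% (4 of 7) did, against 60.8% and 75.2% of all peaks beyond 50 kb of a TSS. The 2 JMJD3 peaks of a site 68.9 kb downstream lay inside Gng12, whose own start is farther from them than that of Gadd45a. A later RefSeq annotation places a long non-coding gene, E230016M11Rik, across part of Gadd45a. The peak files do not name it, so peaks here credited to Gadd45a may lie closer to a start of that gene.

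Gadd45g was bound closely around the gene and again far downstream of it. Within 5 kb of the TSS, 3 sites were listed and each held both factors. Besides the promoter they were centred 3.96 kb upstream, with 1031 bp of Smad3 and 570 bp of JMJD3, and 2.79 kb downstream, with 1011 bp and 780 bp. Sites with both factors at 6.87 and 12.0 kb downstream completed the near group. The remaining 3 Smad3 and 3 JMJD3 peaks within 50 kb lay 29.9 to 40.3 kb upstream and named Sema4d, a semaphorin gene without a promoter peak of either factor.

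Beyond 50 kb, 26 Smad3 and 16 JMJD3 peaks still named Gadd45g, all of them downstream and as far as 308 kb from the TSS. The next start that the files name on that side, Diras2, is 684 kb away. These peaks formed 20 sites, 8 with both factors, 8 with Smad3 alone and 4 with JMJD3 alone. Sites with both were centred 56.3, 74.4, 83.5, 99.6, 118, 202, 246 and 308 kb downstream. The widest, at 308 kb, ran from 52249411 to 52250790 on chromosome 13 and held 1320 bp of Smad3 and 1111 bp of JMJD3 peaks. At 83.5 kb the values were 1350 bp and 1270 bp. In this far group 65.4% of Smad3 peaks (17 of 26) and 75.0% of JMJD3 peaks (12 of 16) overlapped the other list, against 60.8% and 75.2% of all peaks beyond 50 kb of a TSS. With 45 Smad3 and 27 JMJD3 peaks in all, Gadd45g was named by more peaks than 99.2% and 99.0% of the coding genes named at least once. The same percentages were 91.6% and 91.9% for Gadd45a and 95.7% and 90.2% for Gadd45b. They were not adjusted for the distance to the next gene start. Naming the closest start does not show that a site acts on that gene.

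**Figure D4:**
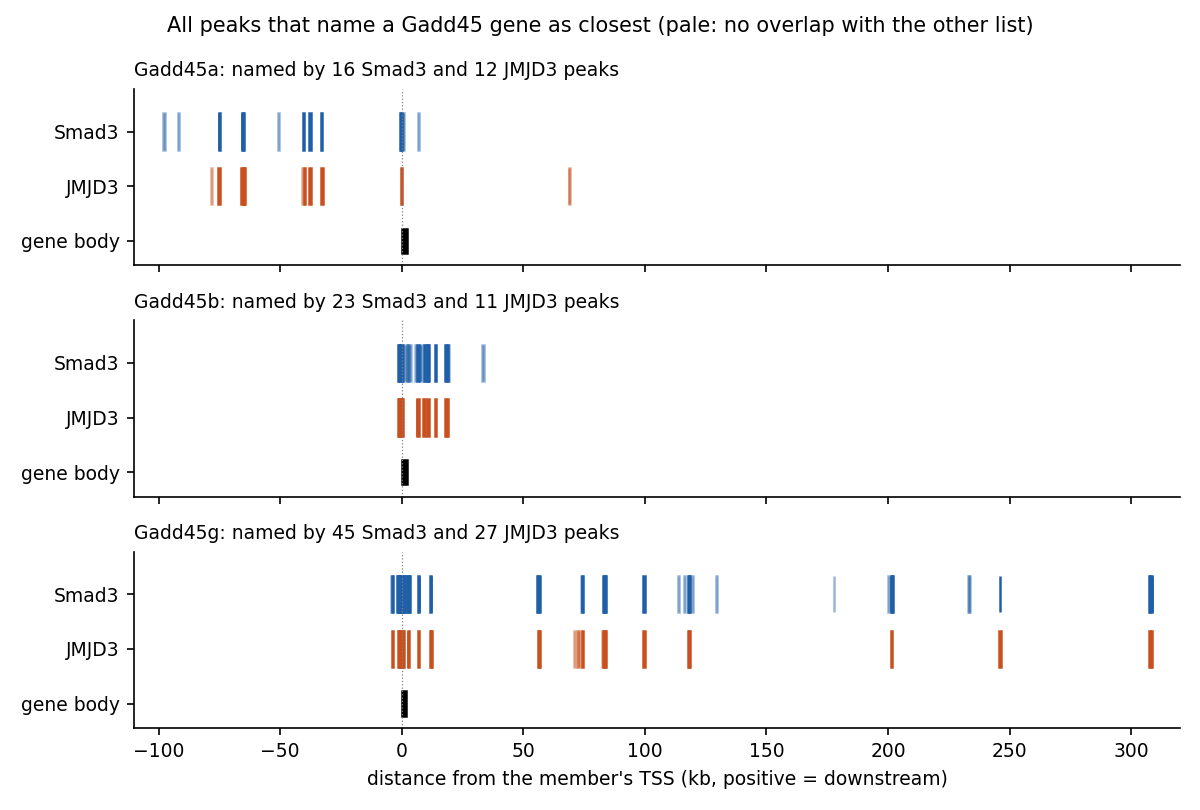
All peaks that name a Gadd45 gene as closest, against distance from its TSS in kb, with Smad3 in blue, JMJD3 in orange, the gene body in black and peaks without overlap drawn pale; each peak carries a thin outline so that it stays visible. Peaks of Gadd45a extend upstream, those of Gadd45b stay within 50 kb, and those of Gadd45g reach 308 kb downstream.

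Gadd45b and Gadd45g resembled each other more than either resembled Gadd45a. Likeness was measured as the distance between genes over 4 rank percentiles, the Smad3 and JMJD3 promoter widths and the numbers of Smad3 and JMJD3 peaks naming the gene, over the 8780 genes with both factors and over 2 libraries. Gadd45b and Gadd45g were 10.3 percentile points apart, and Gadd45a was 70.0 points from each. The distance of Gadd45a lay mostly in 1 of the 4 measures, the joined JMJD3 width. That width exceeded that of 29.0% of bound genes at Gadd45a, 98.3% at Gadd45b and 97.5% at Gadd45g. Without joining, the values were 57.1%, 94.3% and 89.5%, and the distances were not computed anew. Gadd45g ranked only 85 in nearness to Gadd45b, and Gadd45b 78 in nearness to Gadd45g. The genes closest to Gadd45g were Kmt2e, Gse1, Nck2, Ank2 and Smad7, at 1.34 to 1.90 points. The feedback inhibitor gene Smad7, for example, had regions of 2210 bp and 2280 bp and 49 and 38 peaks. Closest to Gadd45b were Sdccag8, Garem2, Zfp710, Ptma and Midn, at 0.685 to 3.03 points, and closest to Gadd45a were Ak4, Lrrc4b, Fign, Ivns1abp and Mbnl1, at 2.44 to 5.59 points.

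Genes whose products bind GADD45 proteins or act beside them were mostly bound too. Smad3 was found at 12 of 12 partner genes and JMJD3 at 9 of them, where 55.0% and 43.3% of coding genes were bound. Cdkn1a, which encodes p21, had 2940 bp of Smad3, the widest region in the list, and 731 bp of JMJD3, a pairing of wide Smad3 and narrower JMJD3 like that of Gadd45a. Ing1, a chromatin reader linked to Gadd45a in DNA demethylation, had 2171 bp and 1760 bp, and Pcna, the replication clamp, 781 bp and 1210 bp. The 3 partners without a JMJD3 promoter peak were Ccnb1 (cyclin B1), Gadd45gip1 and Rxra. Their Smad3 regions were 840 bp, 330 bp and 380 bp.

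Most genes of the kinase cascades that GADD45 proteins feed were bound as well. In the p38 and JNK cascade, 17 of 18 genes carried Smad3 and 15 carried JMJD3, against 55.0% and 43.3% of coding genes. With peaks limited to those in the wider 50% by joined region, 5 of the 18 kept both factors, against 25.6% of coding genes. Map3k4, the direct GADD45 target MTK1, had 860 bp of Smad3 and 1030 bp of JMJD3, and Map2k7, a JNK kinase that Gadd45b binds, 1140 bp and 1090 bp. The widest Smad3 regions of the list lay at Atf2 (1340 bp), a transcription factor phosphorylated by the cascade, and Mapk9 (1190 bp), a JNK gene. The widest JMJD3 regions lay at the p38 kinase gene Map2k3 (1830 bp) and at Map3k5 (1500 bp). Mapk13 had no promoter peak of either factor, and Map2k6 and Mapk12 had Smad3 regions of 670 bp and 930 bp without JMJD3.

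Most of the other stress genes looked up were bound too, where 55.0% of coding genes had Smad3 and 43.3% JMJD3. Of 20 p53 target genes, 18 had Smad3 and 17 JMJD3. Besides Cdkn1a, the sestrin gene Sesn1 had the widest Smad3 region (1660 bp) and also the widest JMJD3 region (1921 bp), followed for JMJD3 by the antiproliferative gene Btg2 (1680 bp). Perp and Tnfrsf10b had no promoter peak of either factor, and Zmat3 had Smad3 alone, over 1410 bp. Of 15 genes of the integrated stress response, 15 had Smad3 and 14 JMJD3. Atf3 and Atf4, transcription factors of that response, had the widest Smad3 regions, 1880 bp and 1741 bp, with JMJD3 regions of 691 bp and 930 bp. Sesn2 and Cebpb had the widest JMJD3 regions, 1570 bp and 1500 bp, with Smad3 regions of 991 bp and 821 bp. Asns, the asparagine synthetase gene, had Smad3 alone, over 620 bp. Several genes stand in 2 of these lists. The lists hold widely transcribed genes, and whether they are bound more often than genes of like activity was not tested.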

How the data were processed

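Mouse neural stem cells were assayed by chromatin immunoprecipitation with antibodies to Smad3 and JMJD3, 1 library each. Per the submitters' processing notes, the tools were CASAVA, Bowtie 0.12.7 and MACS 1.4 and the build mm9. Which step used which tool, with what cut-offs, and how the input entered were not given in the sources used here. As deposited, the files hold, per the file headers, 1 row per peak with its position, the signed distance from the closest TSS to its midpoint and that gene, listed per library, with no score, count or p-value.

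Regions, overlaps (at least 1 bp), promoter calls and ranks were computed with Python 3.11.15, pandas 2.3.3, numpy 2.4.6 and scipy 1.17.1, after the steps were tested on simulated peaks with known answers. Genes were matched by Entrez ID to a RefSeq table of GRCm38.p6 (16331 of 16428), used for names and the gene background. Of the 3 Gadd45 genes, 3 matched a RefSeq promoter sequence, and their lengths in both annotations differed by at most 1 bp.

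The members, lists and named genes were chosen with earlier results of these data known. Named genes were the family, genes named by peaks near it, the 5 nearest in binding pattern, and from each of 4 lists the 2 widest per factor and those without a promoter peak. A planned peak score was replaced by region width, since the files hold none. Alternatives changed the windows, joining distance, overlap rule and number of peaks; equal numbers were reached by keeping Smad3 peaks of the widest joined regions.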

Additional observations from a re-analysis of the deposited data

How the results depend on the processing

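No paired analysis was possible because there was 1 library per antibody, and no replicate could be left out. Of 180 alternative values, 137 stayed close to the main one, within 1.5 times for counts and widths or inside the 95% interval for shares. Promoter windows of 2.5 and 5 kb keep every gene counted at 1 kb, so part of the 137 stayed close by construction. The 3 Gadd45 genes kept both factors in a promoter window of 0.5 kb and with equal numbers of peaks. In windows of 2.5 and 5 kb they could not lose them. Windows of 100 kb held 109 Smad3 and 71 JMJD3 peaks. Peaks were limited to the wider 50% of each list either by the width of their joined region or, chosen after seeing the data, by their own width. By region width, 41 Smad3 and 16 JMJD3 peaks were left within 50 kb and JMJD3 at 2 of the 3 genes, without Gadd45a. By own width, 35 and 17 peaks were left, both factors stayed at 3 of 3 genes, and 51.4% of Smad3 peaks overlapped JMJD3 (54.7% of the whole list). The share of Smad3 peaks with JMJD3 was 40.6% with reciprocal overlap of 50% and 53.1% with midpoints within 200 bp, where all Smad3 peaks gave 37.4% and 47.7%. The share of JMJD3 peaks with Smad3 was 100% of 24 peaks within 25 kb, where the share around other starts was not counted. It was 72.2% with reciprocal overlap (58.2% of all JMJD3 peaks). With equal numbers of peaks, which leaves fewer Smad3 peaks to meet, it was 69.4% (64.5% of all). Without joining, promoter widths were 691, 661 and 581 bp for Smad3 at Gadd45a, Gadd45b and Gadd45g and 1051 and 951 bp for JMJD3 at Gadd45b and Gadd45g. Joining at 100 bp put Gadd45g above Gadd45b for both factors, with 2360 against 2250 bp for Smad3 and 2290 against 2091 bp for JMJD3. Joining at 500 bp gave Smad3 5210 bp at Gadd45b and 3661 bp at Gadd45g, and JMJD3 2091 and 2790 bp. By region width, JMJD3 and both were left at 5 and 5 of 12 partner genes and at 7 and 5 of 18 kinase cascade genes, and both at 11 of 20 p53 targets, where 28.5% and 25.6% of coding genes had JMJD3 and both. For the kinase cascade genes, the count with both factors was then near the share of all genes. By own width, both stayed at 9, 13 and 14 genes of these lists, against 31.5% of coding genes. The missing read depth limits every width and overlap given.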
